A study of Homo sapiens with 12 samples.

Results

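The bortezomib response of T47D cells in the Lo19S state was taken as the difference between 3 RNA libraries of cells given 20 nM bortezomib for 16 h and 3 libraries of cells given its solvent DMSO. These 6 libraries, chosen by their sample labels, are part of a series of 12. T47D is an estrogen receptor-positive luminal breast cancer line, and all cells of the series carried an inducible short hairpin RNA that targets PSMD2, which encodes part of the proteasome's 19S cap. The Lo19S state was induced with doxycycline at 0.2 µg/ml for 3 days, after which the cells were kept without it for 24 h before the drug or DMSO was added. The other 6 libraries are control cells labelled as uninduced, 3 with DMSO and 3 with the same dose of bortezomib, and they are used below only to show where the Lo19S response differs. Since doxycycline and the knockdown of PSMD2 differ together between the states, their parts in such a difference cannot be told apart. The labels name 1 cell line with 1 hairpin and do not state whether the 3 libraries of a group were grown as separate cultures. The p-values below therefore cover the spread among libraries, which may be technical.

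The proteasome is a barrel-shaped protease, the 20S core particle, capped by the 19S regulatory particle, which binds ubiquitin-tagged proteins, unfolds them and feeds them into the core. Bortezomib is a boronate that blocks the active site of the core subunit encoded by PSMB5. When proteasomes are blocked, cells are known to raise proteasome subunit genes through the transcription factor NRF1 (NFE2L1), cytosolic chaperones through HSF1, chaperones of the endoplasmic reticulum through the unfolded protein response, amino acid genes through ATF4, and antioxidant genes through NRF2 (NFE2L2). Bortezomib is used in multiple myeloma, and lowered 19S subunit expression has been studied as a cell state that tolerates proteasome inhibitors.

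Each library held counts for 57773 genes, and totals of the 6 Lo19S libraries ran from 7376597 to 15003480 counts. Levels are counts per 1000000 (CPM) after TMM scaling, which trims extreme genes when it sets library sizes, in the order of replicates 1, 2 and 3, and responses as log2 fold changes of bortezomib over DMSO with their standard errors (SE). A gene was called, and is said to have risen or fallen, at an adjusted p below 0.05 in edgeR's quasi-likelihood test with Benjamini-Hochberg adjustment over 14714 genes tested. Only genes that passed a filter on low counts were tested. A gene near 0 counts in a Lo19S group passed it through another group in which it was higher, as did most genes below 1 CPM there. Such genes include AKR1B10, AREG, BCL2A1, CRYAB, FOSL1, HSPA6, KLF2, KRT6A, TNF, ZEB1, PDZK1, TFF1 and MX2. Their direction is no support for the balance of a list, though they are counted in it. Scaling by library totals alone shifted the log2 fold changes of this response by a median of -0.29, which took the median over all genes tested from -0.02 to -0.31. Where that moved the balance of rises and falls in a gene list by over 10 percentage points, the counts by library totals are given beside the list. For each gene whose values in the 6 libraries are printed below, apart from PSMD7, the DMSO and bortezomib libraries did not overlap. This held for 79.2% of all genes tested. Replicate pairs of the Lo19S groups had a chi-square per degree of freedom between 1.16 and 2.01, and only replicate 3 of the control cells with DMSO stood apart from its group in the series, at 3.98 and 4.36. The share of counts in genes of mitochondrial DNA was 5.53% to 5.63% with DMSO and 5.61% to 5.83% with bortezomib.

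PSMD2, the knockdown target, was at 183, 189 and 184 CPM with DMSO and 541, 546 and 539.6 CPM with bortezomib, against 408, 392 and 417 CPM in control cells with DMSO. Its log2 fold change was 1.55 (SE 0.035, edgeR adjusted p = 2.17e-37), so bortezomib raised the transcript in cells that carried the hairpin. Of the markers of a luminal breast line, all were present in both Lo19S groups, and they split under bortezomib. The hormone receptor gene ESR1 was at 205, 199 and 201 CPM with DMSO and 40.4, 39.4 and 35.4 CPM with bortezomib, and PGR, FOXA1, GATA3 and KRT19 fell as well, while EPCAM, CDH1 and KRT18 rose. The direction of KRT8, also among these markers, is not reported here. Markers of other cell types were low. The summed levels of 9 fibroblast markers were 33.2 to 33.9 CPM with DMSO and 44.4 to 47.3 CPM with bortezomib, most of it from COL1A1, with COL1A2 at 0 counts in all 6 libraries. Leukocyte markers summed to 0.855 to 1.43 CPM and 1.08 to 1.32 CPM, with CD3E, CD3D and TYROBP at 0. Endothelial markers summed to 4.04 to 5.24 CPM and 2.78 to 3.94 CPM, with CDH5 at 0. Adipocyte markers summed to 3.42 to 4.94 CPM and 0.577 to 0.732 CPM, with LEP at 0. The part of these low levels in the results was not tested.

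Bortezomib moved most expressed genes of Lo19S cells. Of 14714 genes tested, 11408 were called, which is 77.5% of them: 5561 rose (37.8%) and 5847 fell (39.7%). By library totals the balance was 3731 rises and 7918 falls. Changes of at least 2-fold were more often falls than rises, with 1510 genes higher (10.3%) and 2725 lower (18.5%). At 4-fold the counts were 390 and 913, at 8-fold 159 and 311, and at 16-fold 70 and 116. The 3 DMSO libraries and the 3 bortezomib libraries did not overlap for 11648 genes (79.2%). The median absolute log2 fold change was 0.60 and the median SE 0.089. With a background this large, a call by itself says little about a gene, and the size of a change says more. The lists and their members were chosen with earlier results of these data known, so their balances are descriptions and not tests. Some lists below split much like all genes, and nothing is read from their balance. Among these are the class I presentation, BH3-only, BCL2 multidomain, interferon, glycolysis, tricarboxylic acid cycle, tubulin, keratin and actin and YAP lists. In bulk RNA, fewer cells of a kind and less RNA per cell cannot be told apart.

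**Figure D1:**
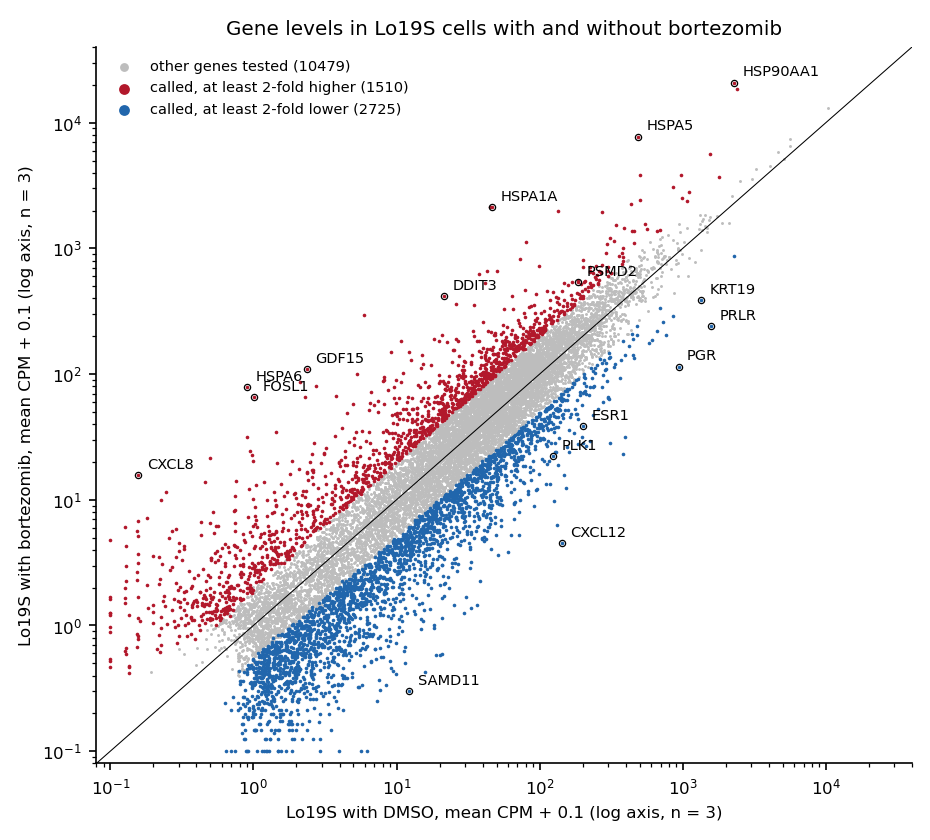
Mean level of each of 14714 genes in Lo19S cells with DMSO (x axis) and with bortezomib (y axis), in CPM plus 0.1 on log axes, 3 libraries a group. Red points mark the 1510 genes called and at least 2-fold higher, blue points the 2725 called and at least 2-fold lower, and the line marks equal levels; heat shock and stress genes such as HSPA1A, HSPA6 and DDIT3 lie far above it and PGR, CXCL12 and SAMD11 far below.

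Genes of the proteasome itself rose nearly as 1 group, by modest amounts. Among the 19 subunits of the 19S particle, 18 rose and 0 fell (17 and 1 by library totals), with a median log2 fold change of 0.78, against 37.8% of all genes rising with a median of -0.02. After PSMD2, the base ATPase gene PSMC6 was at 124, 128 and 128 CPM with DMSO and 333, 297 and 324 CPM with bortezomib, and the lid subunit gene PSMD12 at 183, 174 and 188 CPM with DMSO and 442, 429 and 454 CPM with bortezomib. Both groups of libraries lay well apart for these genes, with log2 fold changes of 1.33 (SE 0.046) and 1.29 (SE 0.042). PSMC1, another ATPase, had the largest value of the list at 1.8 (SE 0.18), but on a low level of 2.91 CPM with DMSO. The smallest rises were 0.43 for PSMC2 and 0.35 for the ubiquitin receptor gene ADRM1, whose call was lost by library totals (0.064, edgeR adjusted p = 0.16). PSMD7, a lid subunit, was at 229.6, 234 and 236 CPM with DMSO and 219, 232 and 224 CPM with bortezomib, with groups that overlap and a log2 fold change of -0.05 (SE 0.041, edgeR adjusted p = 0.243).

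All 13 measured genes of the 20S core rose, with a median log2 fold change of 0.67, and by library totals 11 rose and 1 fell. PSMA5, an outer-ring subunit, was at 167, 166 and 166 CPM with DMSO and 336, 311 and 316 CPM with bortezomib, a log2 fold change of 0.95 (SE 0.039, edgeR adjusted p = 8.78e-27). PSMB5, which encodes the subunit that bortezomib binds, was at 156, 148 and 153 CPM with DMSO and 194, 191 and 181 CPM with bortezomib and rose by only 0.31 (SE 0.042) on the log2 scale. By library totals PSMB5 was not called, at 0.020 with an edgeR adjusted p of 0.67. PSMB1, an inner-ring subunit, had the smallest rise at 0.15, which turned to a fall by library totals. Summed over members, the 19S genes went from 4205 to 7397 CPM and the 20S genes from 3210 to 4797 CPM.

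Assembly factors and alternative caps did not share this pattern. Of 16 such genes, 8 rose and 5 fell, and by library totals 4 rose and 8 fell. PSME4, which encodes the activator PA200, was at 168, 166 and 167 CPM with DMSO and 382, 397 and 413 CPM with bortezomib, and POMP, which helps the core particle assemble, rose by 0.86 on the log2 scale. PSME1 and PSME2, which encode the PA28 activator of antigen processing, fell by 0.58 and 0.36. The immunoproteasome and class I antigen presentation list was even, with 6 of 14 measured genes higher and 6 lower (3 and 8 by library totals), near the 37.8% and 39.7% of all genes tested. Its catalytic subunit genes fell: PSMB9 was at 7.09, 8.18 and 9.08 CPM with DMSO and 1.31, 1.02 and 1.51 CPM with bortezomib, a log2 fold change of -2.58 (SE 0.21, edgeR adjusted p = 3.23e-15), PSMB8 fell by 1.24, and PSMB10 fell by 0.95. The class I heavy chains HLA-C and HLA-B rose by 0.74 and 0.72; these genes resemble each other closely and can share reads, so their split is uncertain.

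Of 21 transcription factors and processing enzymes known to govern stress and proteasome genes, 17 rose and 4 fell (14 and 4 by library totals), with a median log2 fold change of 1.10. MAFF, a small MAF partner of NRF1 and NRF2, was at 2.31, 1.98 and 1.71 CPM with DMSO and 92.7, 83.1 and 84.5 CPM with bortezomib, a log2 fold change of 5.41 (SE 0.11, edgeR adjusted p = 5.09e-39). Its relative MAFG was at 33.9, 33.6 and 35.5 CPM with DMSO and 225, 215 and 225 CPM with bortezomib. NFE2L1 was at 251, 253 and 243 CPM with DMSO and 718, 748 and 709.6 CPM with bortezomib and NFE2L2 at 85.4, 79 and 84.8 CPM with DMSO and 168, 153 and 174 CPM with bortezomib, rises of 1.54 and 1.0 on the log2 scale. HSF1 changed far less, by 0.34 (SE 0.054), and was not called by library totals (0.055, edgeR adjusted p = 0.35). The 4 that fell were XBP1, HSF4, NFE2L3 and DDI2, the last of which encodes the protease that activates NRF1 and fell by 0.45 (SE 0.059).

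Some of the largest and best-resolved changes were in the cytosolic heat shock genes, whose products hold and refold damaged proteins. All 13 measured HSP70 and HSP110 genes rose, with a median log2 fold change of 1.72, and 10 of them at least 2-fold. HSPA1A was at 47.2, 47.4 and 44.7 CPM with DMSO and 2114, 2149.9 and 2159 CPM with bortezomib, which gave the largest F statistic among rises and a log2 fold change of 5.52 (SE 0.045, edgeR adjusted p = 5.65e-56). HSPA1B read nearly the same, at 2086, 2137 and 2142 CPM with bortezomib, but these copies are almost identical in sequence and their split is uncertain. HSPA6, a strictly inducible HSP70, was at 0.478, 0.43 and 1.5 CPM with DMSO and 76.2, 83.8 and 77.5 CPM with bortezomib, a log2 fold change of 6.7 (SE 0.13). These inducible genes went from low levels to abundant transcripts, and no DMSO library came near a bortezomib library. The constitutive HSP70 gene HSPA8 was already high and still went from 2421, 2407 and 2398 CPM to 19271, 18255 and 18519 CPM. HSPH1, which encodes the nucleotide exchange factor HSP110, went from 139.8, 129 and 137 CPM to 1969.7, 1950.1 and 1999 CPM. At the other end of the family stood HSPA4, with a log2 fold change of 0.61, and HSPA2, with 0.66. Summed over the family, levels rose from 3754 to 27529 CPM.

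HSP40 co-chaperones, which hand clients to HSP70, gave 18 rises and 1 fall among 22 measured, with a median of 1.10 on the log2 scale. DNAJB1 was at 83, 85.1 and 73.4 CPM with DMSO and 1119.6, 1129.98 and 1096 CPM with bortezomib, and DNAJA4 and DNAJB4 rose by 3.66 and 3.22. DNAJB5 fell by 0.99 (SE 0.25) from a low level, and DNAJB12, DNAJC5 and DNAJC12 did not pass the test. Small heat shock and BAG genes gave 7 rises and 0 falls among 9 measured (6 and 3 by library totals, where the sign of the weakest members turned). CRYAB was at 0.558, 1.12 and 0.855 CPM with DMSO and 26.4, 23.4 and 22.8 CPM with bortezomib, and BAG3, an HSP70 cofactor in aggregate clearance, was at 53.5, 50.4 and 47.8 CPM with DMSO and 679.7, 647 and 642 CPM with bortezomib. HSPB8, a partner of BAG3, went from 278, 268 and 270.3 CPM to 1937, 1969 and 1909 CPM, and HSPB1 from 885, 874 and 804 CPM to 3364, 2984 and 2839 CPM.

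Of 16 HSP90 genes and co-chaperones, 13 rose and 3 fell. HSP90AA1, the inducible HSP90, was at 2266, 2257 and 2310.1 CPM with DMSO and 20807, 20554 and 21234 CPM with bortezomib, and with bortezomib it took more counts than any other gene. HSP90AB1 went from 1545, 1534 and 1542 CPM to 5528, 5620.5 and 5658 CPM. CHORDC1, an HSP90 co-chaperone, rose by 1.59 on the log2 scale. STUB1, which encodes the ubiquitin ligase CHIP that tags chaperone clients for the proteasome, went the other way: it was at 149, 141 and 142 CPM with DMSO and 63, 60.4 and 60.2 CPM with bortezomib, a log2 fold change of -1.24 (SE 0.054, edgeR adjusted p = 1.07e-25). The steroid receptor cochaperone FKBP5 fell by 0.44. All 10 chaperonin genes rose, with a median log2 fold change of 0.55. The mitochondrial pair HSPD1 and HSPE1 rose by 1.98 and 1.27, and of the cytosolic TRiC ring TCP1 by 1.26, while CCT7 had the smallest rise at 0.35, which was not called by library totals (0.058, edgeR adjusted p = 0.122).

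Heat shock factor binds a heat shock element, searched here as 3 alternating GAA and TTC units, each 2 bases from the next, on both strands and counting overlapping matches. The window ran from 250 bases before to 50 after each RefSeq gene start (build GRCh38.p14), and 0.487% of all 27305 promoters held a match, as did 0.31% of the 10648 promoters of genes tested. Of the 1045 promoters of genes at least 2-fold higher with bortezomib, 6 held one (0.574%), those of HSPA6, HSPA8, DNAJA1, DNAJB6, CHORDC1 and ABHD3, and of the 1880 promoters of genes at least 2-fold lower 3 did (0.16%). By list, a match was in 2 of 12 promoters found for HSP70 and HSP110 genes and 2 of 21 for HSP40 co-chaperones. It was in 1 of 13 for HSP90 and co-chaperones, 0 of 7 for small heat shock and BAG genes and 0 of 9 for chaperonins. A match is a description of the letters and not a binding site. The 3 promoters below are shown because they belong to chaperone genes described above and hold 1, 2 and 3 matches; they were chosen after the matches were seen. Only the 250 bases before the start are printed, 5′ to 3′ in the direction of transcription, with the matches in capitals. HSPA6 lies on the plus strand at chr1:161524290-161524539, HSPA8 on the minus strand at chr11:123062137-123062386, and CHORDC1 on the minus strand at chr11:90223050-90223299.
HSPA6: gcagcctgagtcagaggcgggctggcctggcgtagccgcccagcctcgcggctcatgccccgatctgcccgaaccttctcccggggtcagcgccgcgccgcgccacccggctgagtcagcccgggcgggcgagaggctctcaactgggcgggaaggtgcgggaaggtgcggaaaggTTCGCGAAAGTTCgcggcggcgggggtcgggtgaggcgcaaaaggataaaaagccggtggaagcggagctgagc
HSPA8: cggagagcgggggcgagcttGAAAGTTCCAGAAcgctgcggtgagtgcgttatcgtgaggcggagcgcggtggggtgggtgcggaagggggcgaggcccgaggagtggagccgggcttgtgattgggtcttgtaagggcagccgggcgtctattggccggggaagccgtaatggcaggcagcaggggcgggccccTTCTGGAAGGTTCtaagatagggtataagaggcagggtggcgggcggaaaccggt
CHORDC1: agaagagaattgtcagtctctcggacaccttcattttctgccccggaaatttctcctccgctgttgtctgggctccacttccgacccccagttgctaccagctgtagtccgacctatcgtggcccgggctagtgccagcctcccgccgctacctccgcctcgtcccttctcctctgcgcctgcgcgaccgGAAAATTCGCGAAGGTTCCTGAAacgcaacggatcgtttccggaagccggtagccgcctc

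**Figure D2:**
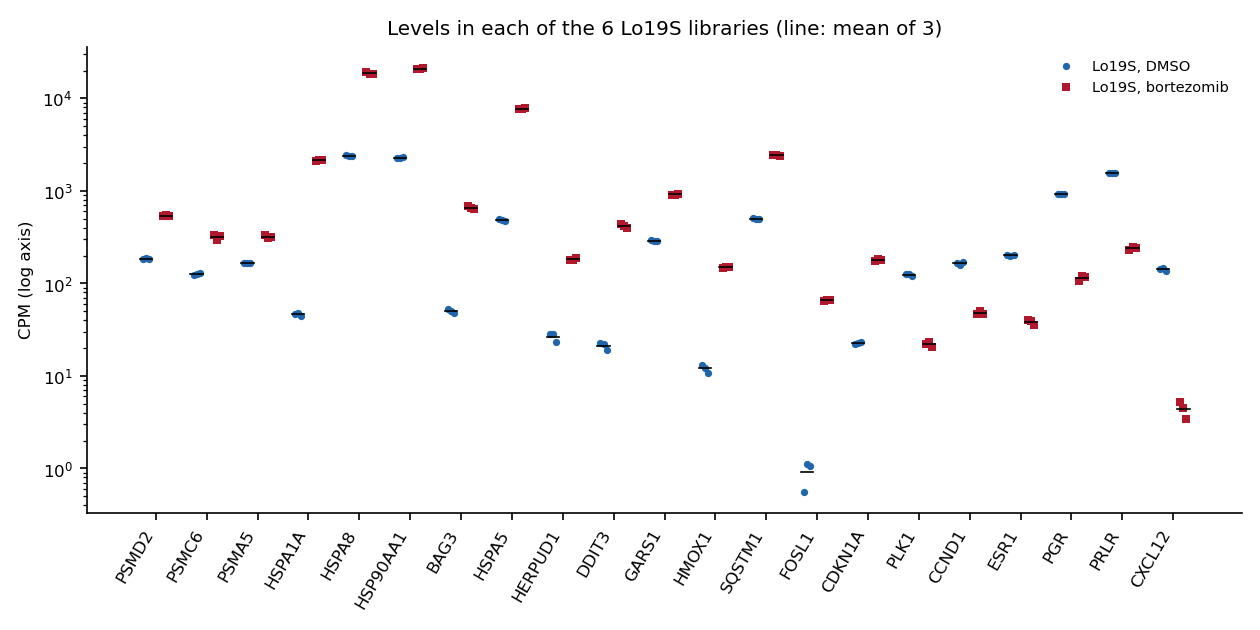
Level of 21 genes in each of the 6 Lo19S libraries, in CPM on a log axis; circles are DMSO libraries, squares bortezomib libraries, and each line is the mean of 3. The groups do not overlap for any of the 21 genes, from the rise in PSMD2, at 183 to 546 CPM, to the falls in PRLR and CXCL12. The same held for 79.2% of all genes tested, and the 21 genes were picked for display.

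Genes of the endoplasmic reticulum chaperones and the unfolded protein response rose as well, with 18 of 21 higher and 2 lower and a median log2 fold change of 1.14. HSPA5, which encodes the luminal HSP70 BiP, was at 501, 485 and 478 CPM with DMSO and 7732, 7685 and 7850.1 CPM with bortezomib, a log2 fold change of 3.99 (SE 0.035, edgeR adjusted p = 1.67e-54). HSP90B1, the luminal HSP90, went from 967, 956 and 988 CPM to 3747, 3822 and 3954 CPM. HYOU1, the luminal HSP110, rose by 2.19 on the log2 scale, and ERN1, the sensor kinase IRE1, by 2.46. P4HB, a protein disulfide isomerase, rose by only 0.09, a sign that turned by library totals. Against the rest, XBP1, the factor that IRE1 activates by splicing, fell: it was at 738, 731 and 723 CPM with DMSO and 247, 272 and 264 CPM with bortezomib, a log2 fold change of -1.49 (SE 0.039, edgeR adjusted p = 1.54e-34). CREB3L2, a membrane-bound factor of the same pathway, fell by 1.48. Gene counts do not separate spliced from unspliced XBP1. Genes of the degradation arm gave 13 rises and 1 fall among 16, with a median of 0.59. HERPUD1 was at 28.1, 28.4 and 23.5 CPM with DMSO and 179.7, 180.1 and 189.6 CPM with bortezomib, and SEL1L, the scaffold of the HRD1 ligase, at 233, 238 and 237 CPM with DMSO and 633, 624 and 657 CPM with bortezomib.

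The endoplasmic reticulum stress element, searched as CCAAT 9 bases before CCACG on both strands in the same window, was in 0.0806% of all promoters and 0.131% of those of genes tested. It was in 6 of the 20 promoters found for the chaperone and unfolded protein response list (30%): HSPA5, HSP90B1, CALR, CANX, CRELD2 and XBP1. Of the genes at least 2-fold higher, 5 promoters held it (0.478%), and of those at least 2-fold lower 1 did (0.0532%), that of XBP1. A pair of promoters of genes that rose and that of XBP1, which fell, are shown to set the same letters beside opposite changes; they too were chosen after the matches were seen. HSPA5 lies on the minus strand at chr9:125241344-125241593, HSP90B1 on the plus strand at chr12:103930160-103930409 and XBP1 on the minus strand at chr22:28800570-28800819. The capitals mark the matches, of which HSP90B1 has 2, the second of them on the other strand.
HSPA5: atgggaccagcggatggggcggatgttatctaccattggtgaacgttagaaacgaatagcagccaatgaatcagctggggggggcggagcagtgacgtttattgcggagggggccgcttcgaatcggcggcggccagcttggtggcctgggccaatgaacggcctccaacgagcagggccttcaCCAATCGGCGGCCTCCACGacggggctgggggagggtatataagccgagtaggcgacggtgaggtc
HSP90B1: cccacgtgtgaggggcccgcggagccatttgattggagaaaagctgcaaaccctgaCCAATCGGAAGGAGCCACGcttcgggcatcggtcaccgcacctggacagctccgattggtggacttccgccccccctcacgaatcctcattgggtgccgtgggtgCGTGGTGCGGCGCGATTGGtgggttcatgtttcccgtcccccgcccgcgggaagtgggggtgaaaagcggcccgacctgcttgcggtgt
XBP1: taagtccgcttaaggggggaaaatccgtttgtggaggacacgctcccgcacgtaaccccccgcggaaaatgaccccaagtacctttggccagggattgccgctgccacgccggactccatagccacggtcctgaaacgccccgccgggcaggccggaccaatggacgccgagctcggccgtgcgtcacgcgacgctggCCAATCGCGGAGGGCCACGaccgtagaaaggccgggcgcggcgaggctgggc

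Targets of ATF4, the factor of the integrated stress response that restocks amino acids and can lead to cell death, rose without exception. All 29 measured targets rose, 20 of them at least 2-fold, with a median log2 fold change of 1.27. DDIT3, which encodes the pro-death factor CHOP, was at 22.7, 22.1 and 19.1 CPM with DMSO and 435, 414 and 397 CPM with bortezomib, a log2 fold change of 4.27 (SE 0.054, edgeR adjusted p = 2.62e-48). The secreted stress hormone gene GDF15 was at 1.27, 3.18 and 2.35 CPM with DMSO and 109, 112 and 107 CPM with bortezomib, the cystine transporter gene SLC7A11 at 39.3, 45.5 and 43.8 CPM with DMSO and 642, 644 and 686 CPM with bortezomib, and the stress factor gene ATF3 rose by 3.82. Weak members were PHGDH, of serine synthesis, at 0.47, STC2 at 0.23, PSPH at 0.18 and NUPR1 at 0.13, and the last 3 changed sign by library totals. PSPH and NUPR1 also fell short of the test when 1 library was left out, with an edgeR adjusted p of 0.0765 for PSPH without DMSO replicate 1 and 0.239 for NUPR1 without bortezomib replicate 1. ATF4 itself was at 138, 134 and 131 CPM with DMSO and 303, 280.2 and 279.6 CPM with bortezomib. The CARE motif, linked to ATF4, was searched in the same promoter window and was in 0 of 25 promoters found for these targets. It was in 0.488% of promoters of genes tested, 0.766% of those at least 2-fold higher and 0.585% of those at least 2-fold lower. For so rare a motif, its absence from 25 promoters says little. Of 8 genes for eIF2 alpha kinases and the phosphatase that ends the response, 6 rose and 2 fell (4 and 4 by library totals). PPP1R15A, which encodes the inducible phosphatase subunit GADD34, was at 19.5, 16.3 and 18.4 CPM with DMSO and 184, 195 and 189 CPM with bortezomib. The kinase gene EIF2AK3 (PERK) rose by 0.79 on the log2 scale, while EIF2AK4 (GCN2) and EIF2AK1 (HRI) fell by 0.27 and 0.20.

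Cytosolic tRNA synthetases, which charge tRNAs and many of which respond to ATF4, gave 15 rises and 3 falls among 20 (13 and 6 by library totals), with a median of 0.71. GARS1 was at 293, 289 and 289.96 CPM with DMSO and 905, 914 and 933 CPM with bortezomib, WARS1 at 220.4, 231 and 225 CPM with DMSO and 721, 706 and 715 CPM with bortezomib, and SARS1 and IARS1 rose by 1.42 and 1.27. QARS1, for glutamine, fell by 0.61 (SE 0.041), and FARSA, for phenylalanine, by 0.28.

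Of 25 measured NRF2 targets, 24 rose and 1 fell (20 and 4 by library totals), with a median log2 fold change of 1.41. HMOX1, which degrades heme, was at 13.1, 12.3 and 10.8 CPM with DMSO and 147, 149.8 and 149.97 CPM with bortezomib, and FTL, the ferritin light chain, at 96.1, 102 and 99.5 CPM with DMSO and 733, 714 and 715 CPM with bortezomib. AKR1B10 had 14 counts with bortezomib and 1 with DMSO, a ratio of 16.1 with an exact 95% counting interval from 2.46 to 683. The antioxidant response element, linked to NRF2, was in 3 of 16 promoters found for the NRF2 targets (18.8%). That is near the 15.3% of promoters of genes tested. It was in 19.6% of promoters of genes at least 2-fold higher and 13% of those at least 2-fold lower. The pentose phosphate enzymes PGD and TKT barely moved, with 0.13 for PGD, whose sign turned by library totals, and -0.13 for TKT, the 1 that fell. Other antioxidant genes did not follow: of 21 glutathione and peroxidase enzymes 6 rose and 10 fell (5 and 16 by library totals). SOD1 was at 377, 374 and 384 CPM with DMSO and 963, 875 and 901 CPM with bortezomib and GPX3 at 213, 203 and 206 CPM with DMSO and 498, 462 and 466 CPM with bortezomib, both higher. GPX4, which removes lipid peroxides, was at 115, 110.2 and 105 CPM with DMSO and 52.6, 51.9 and 49.9 CPM with bortezomib, and MGST2 and GSTK1 fell by 1.8 and 1.19. Among 4 measured members of the metallothionein list, 2 rose and 1 fell (1 and 1 by library totals). These were the metal sensor MTF1, at 1.33, the zinc exporter SLC30A1, at 0.37, and the metallothionein MT2A, which fell by 1.17, while MT1X was not called at -0.06.

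Genes that carry ubiquitin-tagged proteins to degradation mostly rose. UBB, which encodes polyubiquitin, was at 208, 197 and 201 CPM with DMSO and 872, 800.04 and 762 CPM with bortezomib. SQSTM1, which encodes the p62 receptor that carries ubiquitin-tagged cargo to autophagy, was at 508, 494 and 497 CPM with DMSO and 2472, 2439 and 2412 CPM with bortezomib. In that list of 14 measured genes 10 rose and 2 fell (8 and 5 by library totals). The autophagy receptors OPTN and TAX1BP1 rose by 1.38 and 1.29, and the shuttle UBQLN1, which delivers cargo to the proteasome, by 1.42. Of 16 genes for the segregase p97 and its cofactors, 15 rose and 1 fell, with a median log2 fold change of 0.83. ZFAND2A, a heat- and arsenite-induced proteasome adaptor, was at 21.6, 19.7 and 20.8 CPM with DMSO and 211, 205 and 202 CPM with bortezomib. YOD1, ZFAND5 and UFD1 rose by 2.09, 2.03 and 1.31, and ZFAND2B fell by 0.48.

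Autophagy genes gave 20 rises and 3 falls among 25 measured (16 and 5 by library totals), with a median of 0.66. MAP1LC3B, the autophagosome coat gene, was at 56.9, 56.4 and 55.4 CPM with DMSO and 332, 314 and 343 CPM with bortezomib, and its relative GABARAPL1 at 27.2, 27.6 and 26.6 CPM with DMSO and 144, 134 and 142 CPM with bortezomib. RB1CC1, a scaffold of the initiating kinase complex, rose by 1.88 on the log2 scale. The lysosomal regulator TFEB, at a low level, fell by 1.27 (SE 0.32), and ATG10 fell by 0.91. Of 20 lysosomal genes 12 rose and 5 fell (10 and 7 by library totals). NPC1, which exports cholesterol from lysosomes, was at 46.9, 49.9 and 46.9 CPM with DMSO and 201, 205 and 206 CPM with bortezomib, while its partner NPC2 fell by 0.64. The proteases parted too, with CTSL higher by 1.47 and CTSB lower by 0.53.

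Early-response transcription factors rose in part. Of 19 measured immediate early and AP-1 genes, 12 rose and 2 fell (11 and 5 by library totals), with a median of 1.09. FOSL1 was at 0.558, 1.12 and 1.07 CPM with DMSO and 64.3, 66.3 and 66.1 CPM with bortezomib, a log2 fold change of 6.18 (SE 0.13, edgeR adjusted p = 3.36e-39), and JUN at 40, 41.7 and 37.8 CPM with DMSO and 257, 262 and 262 CPM with bortezomib. KLF4 rose by 2.8, and KLF2 by 3.91 (SE 0.29) from a level near 0. EGR3 fell by 2.03 and JUNB by 0.24, and 5 were not called, among them EGR1. Among 10 MAP kinase phosphatases 6 rose and 3 fell (5 and 4 by library totals). DUSP1 was at 8.92, 8.86 and 9.3 CPM with DMSO and 156, 146 and 151 CPM with bortezomib, while DUSP4, DUSP2 and DUSP7 fell by 0.96, 0.92 and 0.76.

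NF-kappaB factors and targets gave 16 rises and 1 fall among 18 measured, with a median log2 fold change of 1.54. CXCL8, a neutrophil chemokine, had 461 counts with bortezomib and 2 with DMSO, a ratio of 266 with an exact 95% counting interval from 73.2 to 2202. CCL20 had 145 counts and 2, a ratio of 83.6 with an interval from 22.7 to 697. CXCL3 had 36 counts against 0, at least 13.8-fold higher when 3 counts over the DMSO group are taken as the floor. CXCL8, CCL20 and CXCL3 passed the filter on low counts through another group in which they were higher, so their rises are no support for the list's balance. TNF rose by 3.62, from 0.644 to 8.18 CPM. At that low DMSO level TNF too passed the filter through another group, so its rise is no such support either. TRAF1, an adaptor of TNF receptors, fell by 2.72 (SE 0.34), and NFKBIE was not called at -0.21. Secreted signals moved far in both directions, with 12 of 19 measured genes higher and 6 lower, all 6 at least 2-fold. The EGF-family ligand genes EREG and HBEGF were higher, EREG at 7.25, 8.52 and 8.66 CPM with DMSO and 99.2, 93.5 and 93.8 CPM with bortezomib and HBEGF at 5.18, 5.25 and 4.28 CPM with DMSO and 53.6, 62.3 and 57.9 CPM with bortezomib. CXCL12, the ligand of CXCR4 and an estrogen receptor target, was at 144, 149 and 136 CPM with DMSO and 5.26, 4.54 and 3.39 CPM with bortezomib, a log2 fold change of -5.08 (SE 0.087, edgeR adjusted p = 1.89e-42). PDGFB fell by 2.6, and CCL28 by 3.2 from 5.09 CPM.

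The p53 targets were divided. Of 20 measured, 12 rose and 5 fell (11 and 8 by library totals). GADD45A was at 4.46, 6.2 and 5.02 CPM with DMSO and 103, 89.7 and 106 CPM with bortezomib, the cyclin-dependent kinase inhibitor gene CDKN1A at 22.1, 22.5 and 23.1 CPM with DMSO and 177, 184 and 178 CPM with bortezomib, and SESN2 at 21.8, 19.9 and 17.6 CPM with DMSO and 183, 186 and 186 CPM with bortezomib. DDB2, of DNA repair, was at 50.5, 54.9 and 52.6 CPM with DMSO and 11.7, 9.95 and 9.45 CPM with bortezomib, and TP53I3 at 479, 473 and 486 CPM with DMSO and 203, 207 and 201 CPM with bortezomib, both lower. FDXR and SESN1 fell by 1.28 and 0.99. Of the 4 genes of the GADD45 list 3 rose, and GADD45GIP1, a mitochondrial ribosome protein, fell by 0.25.

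Of 10 BH3-only genes, which belong to the BCL2 family and start cell death, 5 were higher and 4 lower. That split is near the 37.8% higher and 39.7% lower of all genes tested. PMAIP1, which encodes NOXA, was at 3.19, 2.67 and 1.6 CPM with DMSO and 22.6, 22.5 and 24.2 CPM with bortezomib, and BBC3, which encodes PUMA, at 5.9, 4.99 and 6.52 CPM with DMSO and 20.2, 18.7 and 18 CPM with bortezomib. BMF was at 5.82, 6.02 and 6.63 CPM with DMSO and 0.717, 1.02 and 1.08 CPM with bortezomib, and BAD fell by 1.16. Among 8 multidomain genes 4 rose and 3 fell. The pro-survival gene MCL1, whose product NOXA neutralises, was at 324, 328 and 337 CPM with DMSO and 561, 567 and 566 CPM with bortezomib. BCL2 itself, also an estrogen receptor target, was at 6.14, 6.02 and 8.02 CPM with DMSO and 0.836, 0.439 and 1.01 CPM with bortezomib, and BCL2L1, which encodes BCL-XL, fell by 1.09 (SE 0.049). BCL2A1 had 12 counts with bortezomib and 0 with DMSO, at least 4.61-fold higher. Of 17 death receptor and caspase genes 11 rose and 2 fell (8 and 6 by library totals). TNFRSF10B, the TRAIL receptor DR5, was at 61.8, 68.7 and 65 CPM with DMSO and 341, 327 and 325 CPM with bortezomib, and TNFRSF10A, the receptor DR4, at 19.8, 18.3 and 21.7 CPM with DMSO and 89.2, 87.5 and 86.8 CPM with bortezomib. The decoy receptor gene TNFRSF10C fell by 2.11 on the log2 scale, and CASP8 and CASP4 rose by 1.11 and 1.97.

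**Figure D3:**
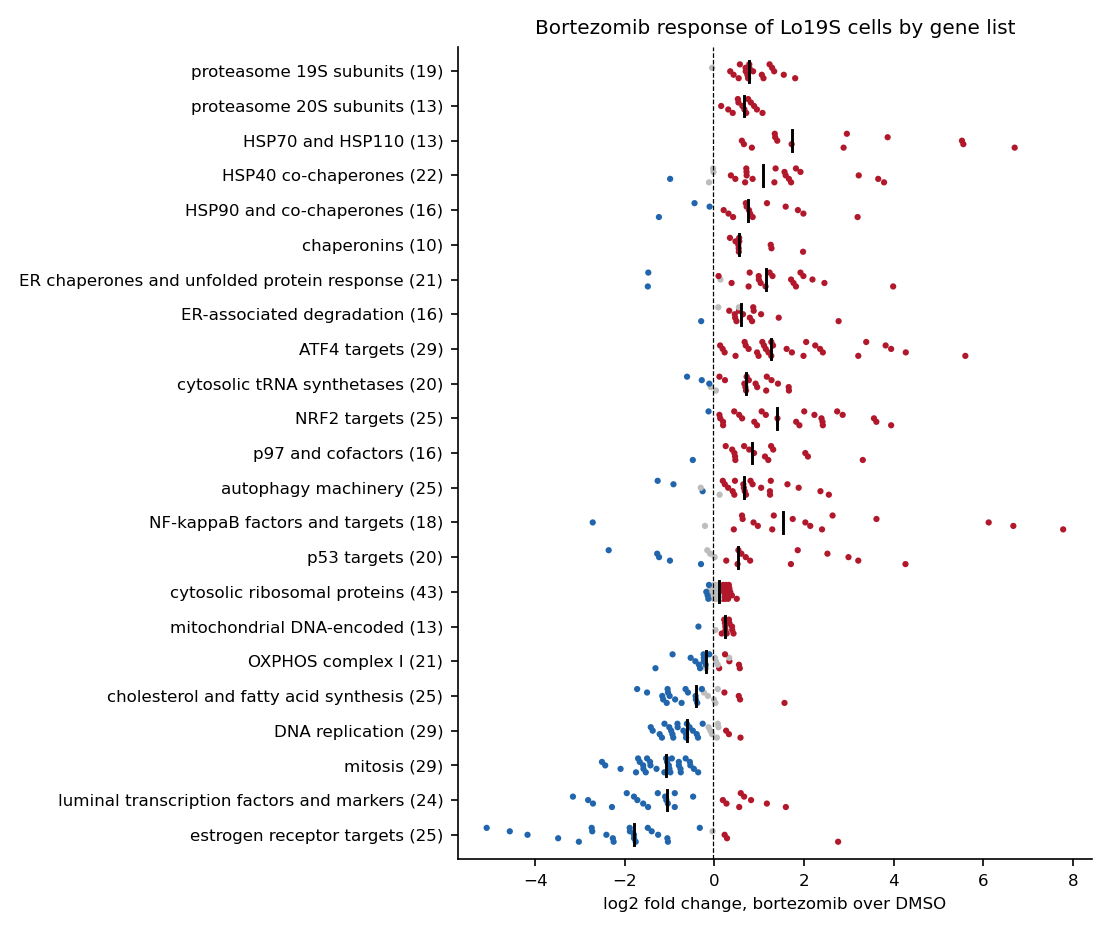
Log2 fold change of each measured member of 23 gene lists in the Lo19S response (number of members in brackets); red points rose, blue points fell, grey points were not called, black bars are list medians and the dashed line is the median of all genes tested, -0.02. The medians run from -1.80 for estrogen receptor targets to 1.72 for HSP70 and HSP110, on the TMM scale; by library totals all values shift by about -0.29.

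Cell cycle genes fell. All 29 mitosis genes were lower, 18 of them at least 2-fold, with a median log2 fold change of -1.08. PLK1, the mitotic kinase, was at 127, 126 and 120.1 CPM with DMSO and 22.3, 23.6 and 20.6 CPM with bortezomib, a log2 fold change of -2.51 (SE 0.069, edgeR adjusted p = 4.14e-33). KIF20A was at 128, 132 and 127 CPM with DMSO and 25.3, 23.6 and 22.9 CPM with bortezomib and CDC20, the activator of the anaphase-promoting complex, at 124, 119.96 and 118 CPM with DMSO and 29.3, 28.2 and 27.5 CPM with bortezomib. The smallest falls were those of the checkpoint kinase gene BUB1B, by 0.36, and KIF23, by 0.46. DNA replication genes moved less: 20 of 29 fell and 3 rose, with a median of -0.61. GINS1, LIG1 and MCM3 fell, with log2 fold changes of -1.42, -1.38 and -1.17. GINS3 rose by 0.58, as did RRM2 by 0.32 and RRM1 by 0.26, which encode the subunits of ribonucleotide reductase, though by library totals RRM1 turned sign and RRM2 was not called (0.035, edgeR adjusted p = 0.489). Among genes of the G1 phase 15 of 20 fell and 4 rose. CCND1, the cyclin D1 gene, was at 167, 159.9 and 169 CPM with DMSO and 46.2, 50.04 and 47.1 CPM with bortezomib, and CDKN2C at 28.2, 25.6 and 24.9 CPM with DMSO and 6.21, 5.56 and 5.12 CPM with bortezomib. The 4 that rose were CDKN1A, CCNE1, CDKN2B and CCNE2. Replication-dependent histone genes, whose transcripts largely lack the polyA tail on which these libraries depend, gave 6 falls and 0 rises among 7 measured.

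The estrogen receptor program had the lowest median of the lists with more than 2 measured genes, -1.80 over 25 genes, of which 21 fell and 3 rose. PGR, the progesterone receptor, was at 933, 933 and 937 CPM with DMSO and 105, 121 and 118 CPM with bortezomib, a log2 fold change of -3.03 (SE 0.041, edgeR adjusted p = 4.91e-47). MYB was at 25.4, 24.5 and 25 CPM with DMSO and 1.67, 1.02 and 1.37 CPM with bortezomib. PDZK1 had 91 counts with DMSO and 3 with bortezomib, a ratio of 26.3 with an exact 95% counting interval from 8.72 to 130, and TFF1 43 and 3, a ratio of 12.4 with an interval from 3.98 to 62.6. AREG, an EGF-family ligand, rose from 0.637, 0.516 and 0.748 CPM to 3.34, 4.54 and 4.83 CPM, SLC39A6 by 0.28 and STC2 by 0.23, and the last pair changed sign by library totals. NRIP1 was not called at -0.04. Among 24 luminal factors and markers 16 fell and 8 rose, with a median of -1.06. PRLR, the prolactin receptor and the gene with the largest F statistic among falls, was at 1575, 1562 and 1577 CPM with DMSO and 229, 249.9 and 242 CPM with bortezomib. The luminal transcription factor gene SPDEF was at 119, 119 and 113 CPM with DMSO and 10.5, 15.2 and 13.7 CPM with bortezomib, and GATA3 at 672, 673 and 646 CPM with DMSO and 216, 224 and 221 CPM with bortezomib. FOXA1, which opens chromatin for the estrogen receptor, was at 359.6, 368 and 363 CPM with DMSO and 91.4, 95.5 and 94.1 CPM with bortezomib. The surface mucin gene MUC1 fell by 2.29. Against them CLDN4, of tight junctions, was at 468, 458 and 450.5 CPM with DMSO and 1458, 1376 and 1324 CPM with bortezomib, and ELF3, EPCAM and KRT18 rose by 1.17, 0.82 and 0.66.

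Keratins and cornified envelope genes, many of them of squamous epithelium, gave 7 rises and 5 falls among 13 measured. The stress keratin genes KRT6A and KRT16 were both higher. KRT6A was at 0.159, 0.172 and 0.107 CPM with DMSO and 10.8, 12.9 and 10.7 CPM with bortezomib and KRT16 at 1.12, 1.38 and 1.39 CPM with DMSO and 11.7, 10.2 and 12.4 CPM with bortezomib. IVL, which encodes the envelope protein involucrin, was at 12.6, 12.3 and 9.73 CPM with DMSO and 57, 51.8 and 47.8 CPM with bortezomib. KRT4 fell by 2.23 and KRT23 by 1.25. Of 11 measured basal and mesenchymal genes 5 rose and 3 fell (4 and 4 by library totals). CD44, a cell surface receptor for hyaluronan, was at 115, 109.7 and 114 CPM with DMSO and 453, 445 and 468 CPM with bortezomib. ZEB1 had 64 counts with bortezomib and 2 with DMSO, a ratio of 36.9 with an exact 95% counting interval from 9.81 to 311, which is a level of 2.2 CPM. VIM fell by 1.8 (SE 0.43), to 0.369 CPM, and ITGB4 fell by 1.44.

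Genes of the cytoskeleton showed no common direction. Of 15 actin and YAP target genes 7 rose and 7 fell (4 and 9 by library totals). CCN1, a matricellular YAP target, rose and was at 40.3, 43 and 43.5 CPM with DMSO and 108, 111 and 109.6 CPM with bortezomib. ACTA2, a smooth muscle actin, fell and was at 46.4, 49 and 50.3 CPM with DMSO and 6.93, 8.49 and 5.99 CPM with bortezomib, and CNN2 fell by 1.89. Among 11 tubulin genes 6 rose and 4 fell, with TUBA4A at 66.3, 59.8 and 62.5 CPM with DMSO and 223, 202 and 198 CPM with bortezomib and TUBB at 1111, 1073 and 1069 CPM with DMSO and 624, 600.5 and 584 CPM with bortezomib.

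Nuclear genes of oxidative phosphorylation leaned slightly towards lower levels. For complex I 11 of 21 fell and 5 rose, with a median log2 fold change of -0.19 (15 fell and 2 rose by library totals). For complexes II to V 13 of 22 fell and 4 rose, with the same median of -0.19 (18 and 0 by library totals). NDUFB10, NDUFA2 and the cytochrome gene CYC1 fell by 1.32, 0.93 and 0.81, and NDUFB9 and NDUFA5 rose by 0.57 and 0.55. The 13 genes of mitochondrial DNA went the other way on the TMM scale, with 11 higher, 1 lower and a median of 0.25, but by library totals 2 rose and 4 fell. MT-CO1 was at 5718, 5557 and 5559.6 CPM with DMSO and 7747, 7237 and 7119 CPM with bortezomib. MT-ND6, the only light-strand member, fell by 0.36, and MT-ND2 was not called at 0.02. Mitochondrial ribosomal protein genes gave 19 rises and 8 falls among 30 (10 and 15 by library totals), from 0.82 for MRPL18 to -1.28 for MRPS34. Proteases and import genes gave 10 rises and 3 falls among 18 (8 and 8 by library totals). LONP1, the matrix protease, rose and was at 88.9, 86.8 and 82.3 CPM with DMSO and 245, 236 and 232 CPM with bortezomib. OMA1, the stress-activated inner membrane protease, fell and was at 23.9, 22.5 and 23.4 CPM with DMSO and 7.53, 8.19 and 11.1 CPM with bortezomib.

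Of 24 genes of the tricarboxylic acid cycle and pyruvate entry 10 rose and 8 fell (3 and 14 by library totals). IDH2 was at 215, 211 and 204 CPM with DMSO and 70.5, 71.7 and 65.9 CPM with bortezomib, and the pyruvate dehydrogenase kinase gene PDK2 and the dehydrogenase gene PDHB fell by 1.41 and 0.78. Lipoylation and iron-sulfur genes gave 4 rises and 10 falls among 16 measured (2 and 11 by library totals). FDX1, the ferredoxin gene, was at 23.2, 21.1 and 20.3 CPM with DMSO and 29.98, 31.9 and 25.6 CPM with bortezomib, a rise that was not called by library totals (0.12, edgeR adjusted p = 0.245). ISCU, the cluster scaffold, was at 83.9, 87.1 and 81.8 CPM with DMSO and 186, 176 and 172 CPM with bortezomib, and LIPT2 and NFS1 fell by 1.78 and 0.74. Glycolysis was mixed, with 8 rises and 10 falls among 21 (4 and 15 by library totals). HK2 was at 20.1, 19.97 and 21.8 CPM with DMSO and 64.7, 62 and 62 CPM with bortezomib and the glucose transporter gene SLC2A1 rose by 1.4, while LDHA was at 304, 320.5 and 311 CPM with DMSO and 139.8, 134 and 134 CPM with bortezomib and the lactate exporter gene SLC16A3 fell by 2.03. In fatty acid oxidation 4 of 18 genes rose and 10 fell (2 and 15 by library totals). CPT1A, which sets the entry of fatty acids into mitochondria, was at 229.95, 241 and 230.4 CPM with DMSO and 89.95, 92.2 and 94.8 CPM with bortezomib, and its regulator PPARA fell by 1.38. Cholesterol and fatty acid synthesis gave 16 falls and 4 rises among 25, with a median of -0.42. INSIG1, which holds back activation of the sterol-sensing factors, fell by 1.5. The synthesis enzymes HMGCS1 and SC5D were among those that rose, by 0.54 and 0.22, the last of which turned sign by library totals.

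Cytosolic ribosomal protein genes moved little: 22 of 43 rose and 4 fell, with a median log2 fold change of 0.10 and a range from -0.18 for RPL22 to 0.50 for RPL7. By library totals 1 rose and 27 fell, so the sign of this small shift depends on the scaling, and RPL7 was not called (edgeR adjusted p = 0.111). RPS20 was at 301, 303 and 326 CPM with DMSO and 439, 389.8 and 389 CPM with bortezomib, and RPL13 at 989, 995 and 996 CPM with DMSO and 933, 891 and 888 CPM with bortezomib. Reads of these genes can be shared with many processed pseudogenes, so their values are uncertain. Translation factors rose more clearly, with 18 of 21 higher and 1 lower (11 and 4 by library totals). EIF5 was at 323, 332 and 340.2 CPM with DMSO and 1135, 1117 and 1160.4 CPM with bortezomib, and EIF1 and EIF4G2, which act in start codon choice and cap-independent initiation, rose by 1.43 and 1.35. EIF4B fell by 0.14. Splicing factors gave 15 rises and 2 falls among 24 (6 and 11 by library totals), led by the kinase gene CLK1 at 41, 44.7 and 42.4 CPM with DMSO and 92.5, 83.1 and 84.8 CPM with bortezomib.

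In the hypoxia response list 12 of 17 measured genes rose and 2 fell (11 and 4 by library totals), with a median of 0.90. NDRG1 was at 12, 12.5 and 11.5 CPM with DMSO and 66.1, 65.1 and 65.1 CPM with bortezomib and VEGFA at 54.6, 58.1 and 53 CPM with DMSO and 219, 215 and 217 CPM with bortezomib, while HILPDA, a lipid droplet gene, was at 49.8, 51.8 and 49.7 CPM with DMSO and 16.8, 20.5 and 16 CPM with bortezomib and LOX fell by 2.64 from 1.16 CPM. Interferon-stimulated genes gave 12 rises and 10 falls among 25 (10 and 13 by library totals), near the 37.8% of rises and 39.7% of falls over all genes tested. IFIT5 was at 10.2, 10.5 and 9.19 CPM with DMSO and 47.8, 45.5 and 46.2 CPM with bortezomib and ISG20 rose by 2.34. IFITM1 fell by 2.67, and MX2 had 54 counts with DMSO and 3 with bortezomib, a ratio of 15.6 with an exact 95% counting interval from 5.06 to 78.0.

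The 15 largest rises among genes with at least 10 CPM in the higher group were CXCL8, HSPA6, FOSL1, KRT6A, MAP1B, SPX, GDF15, HSPA1B, HSPA1A, MAFF, SCEL, DLGAP1-AS2, DAPP1, EPGN and CRYAB, all at least 28.4-fold. Several are heat shock or stress genes described above, and others are of squamous epithelium, such as SCEL, which encodes sciellin of the cornified envelope. CXCL8, HSPA6, FOSL1, KRT6A, SPX, SCEL, DLGAP1-AS2 and CRYAB were below 1 CPM with DMSO and so passed the filter through another group. No common theme is read from a list chosen by the size of change. MAP1B, a microtubule-associated protein of neurons, was at 5.66, 5.94 and 5.88 CPM with DMSO and 279.9, 308 and 300.4 CPM with bortezomib, a log2 fold change of 5.67 (SE 0.068, edgeR adjusted p = 3.68e-49). EPGN, an EGF-family ligand, was at 2.71, 2.15 and 1.71 CPM with DMSO and 65.8, 62.9 and 68.8 CPM with bortezomib. SPX, which encodes the peptide hormone spexin, was at 0.478, 0.602 and 0.107 CPM with DMSO and 21.6, 19.9 and 22.8 CPM with bortezomib. The 15 largest falls were SAMD11, KLHDC7A, FREM2, TMEM229B, CXCL12, RAB26, SYT12, CRACR2B, RTN4RL1, DEGS2, SRGAP3, METTL7A and GRPR with the noncoding AC007743.1 and AC083967.1. SAMD11 was at 13.3, 12.2 and 11 CPM with DMSO and 0.239, 0 and 0.361 CPM with bortezomib, a log2 fold change of -5.6 (SE 0.29, edgeR adjusted p = 7.27e-23). GRPR, the gastrin-releasing peptide receptor, was at 19.8, 20.7 and 21.2 CPM with DMSO and 0.956, 1.46 and 0.721 CPM with bortezomib, and DEGS2, a ceramide enzyme, at 30.1, 30.9 and 27.7 CPM with DMSO and 1.67, 1.02 and 0.793 CPM with bortezomib. Large falls from high levels were those of SERPINA6, which encodes corticosteroid-binding globulin, at 398, 368 and 376 CPM with DMSO and 24.3, 24.7 and 20.2 CPM with bortezomib, and IGFBP5, an insulin-like growth factor binding protein, at 407, 378 and 394 CPM with DMSO and 29.98, 35 and 29.1 CPM with bortezomib. None of the genes tested had 0 counts in all 3 libraries of a Lo19S group and at least 10 CPM in the other.

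The counts came to rest on fewer genes. The 10 genes with the most counts took 5.22% to 5.30% of each DMSO library and 8.76% to 8.89% of each bortezomib library. With DMSO these were MT-ND4, MT-CO1, MT-CO3, MT-ND2, MT-CYB, MT-ATP6, MT-CO2, MT-ND5, the elongation factor gene EEF2 and HSPA8. With bortezomib HSP90AA1 and HSPA8 came before MT-ND4, and HSPA5 and HSP90AB1 were among the first 10. These are shares of counts and not levels per length.

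Classes of genes differed in their balance. Of 12346 protein-coding genes 5090 rose and 4944 fell, with a median log2 fold change of 0.01. Of 546 antisense genes 57 rose and 328 fell, with a median of -0.87, and of 411 lincRNA genes 58 rose and 238 fell, with a median of -0.81. Processed pseudogenes gave 124 rises and 47 falls among 569. By library totals the splits were 3405 rises and 6790 falls for protein-coding genes, 40 and 385 for antisense genes, 44 and 273 for lincRNA genes and 78 and 98 for processed pseudogenes. The kit marks strand, but the strand setting used for counting is not given in the sources used here. Reads of overlapping sense genes may therefore enter the antisense counts. By level with DMSO, genes of 1 to 10 CPM gave 860 rises and 1955 falls among 4204, those of 10 to 100 CPM 3208 and 2987 among 7475, and those of 100 to 1000 CPM 1114 and 786 among 2161. Among 40 genes above 1000 CPM 26 rose and 10 fell. The balance above 10 CPM depended on the scaling: by library totals 2136 rose and 4139 fell from 10 to 100 CPM, 660 and 1219 from 100 to 1000 CPM, and 12 and 21 above 1000 CPM, while 618 rose and 2394 fell from 1 to 10 CPM. The 834 genes below 1 CPM, with 353 rises and 109 falls, could mostly pass the filter only through another group in which they were higher, so nothing is read from their balance.

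**Figure D4:**
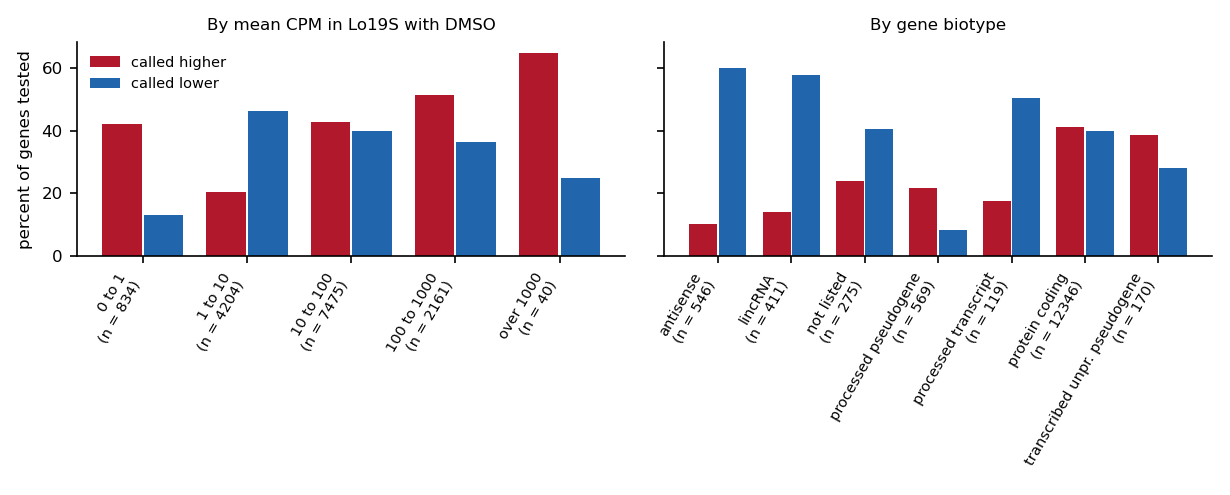
Percent of genes tested that were called higher (red) or lower (blue) in Lo19S cells with bortezomib, by mean CPM with DMSO (left) and by gene biotype (right), with the number of genes in brackets; "not listed" marks identifiers without a biotype. Falls outnumber rises among antisense and lincRNA genes, 328 to 57 and 238 to 58, and rises outnumber falls above 100 CPM, a balance that turned by library totals.

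Control cells given the same dose showed where the Lo19S response differed. They had 11976 genes called (81.4%), 5761 higher (39.2%) and 6215 lower (42.2%), with 2131 and 3251 at least 2-fold. The responses share no library. Of the genes that rose in Lo19S cells 4997 also rose in control cells, which is 89.9% of the rises in Lo19S cells and 86.7% of those in control cells. Of the genes that fell 5346 fell in both, 91.4% and 86.0% of the falls. Opposite calls were few on the TMM scale, with 87 genes higher in Lo19S and lower in control cells and 34 the reverse. These overlaps and opposite calls were not recomputed by library totals. The difference of the responses, Lo19S minus control, was called for 4094 genes (27.8%), 2126 of them higher (14.4%) and 1968 lower (13.4%). By library totals 3331 were higher and 1257 lower, since that scaling moved the difference by a median of 0.09. Without the control DMSO replicate that stood apart, 2625 were higher and 2355 lower.

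Proteasome genes rose less in Lo19S cells. The difference was called lower for 17 of 19 genes of the 19S particle and for 12 of 13 of the 20S core, and higher for 0 of either, where 13.4% of all genes were lower. The list medians were 0.78 against 1.25 in control cells for the 19S genes and 0.67 against 1.18 for the 20S genes. For PSMD2 the difference was -0.35 (SE 0.047, edgeR adjusted p = 7.1e-08), with control cells at 1509, 1510.4 and 1528 CPM under bortezomib. ADRM1 and PSMB4 had the largest differences of the called members, -0.90 and -0.77. Cytosolic heat shock genes were also raised less, with the difference lower for 9 of 13 HSP70 and HSP110 genes and higher for 0. HSPA6 reached 381, 394 and 389.9 CPM in control cells, a difference of -2.35 (SE 0.43, edgeR adjusted p = 3.67e-05). BAG3 reached 2004, 2014 and 1974 CPM in control cells with bortezomib, a difference of -1.96 (SE 0.064, edgeR adjusted p = 2.83e-28). Ribosomal protein genes showed the same sign, with 36 of 43 lower in the difference and 0 higher.

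Other lists leaned the other way. Of 29 mitosis genes, 24 had a higher difference and 0 a lower one, that is a smaller fall in Lo19S cells, with medians of -1.08 and -1.68. PLK1 was at 14.2, 11.8 and 11.9 CPM in control cells with bortezomib, a difference of 1.19 (SE 0.12, edgeR adjusted p = 3.08e-11). Of 24 luminal genes 16 were higher and 2 lower, with medians of -1.06 and -1.89. GATA3 was at 96.5, 93.5 and 97.9 CPM in control cells with bortezomib, a difference of 1.28 (SE 0.059, edgeR adjusted p = 1.43e-22), and PGR at 50.8, 51.4 and 48.4 CPM, a difference of 1.42 (SE 0.063, edgeR adjusted p = 1.31e-23). ATF4 targets had 18 of 29 higher and 2 lower, with medians of 1.27 and 1.09, and tRNA synthetases 12 of 20 higher and 1 lower. GARS1 differed by 0.41 and HSPA5 by 0.36 on the log2 scale, while the unfolded protein response list as a whole had 4 higher and 5 lower.

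Among single genes the 8 largest negative differences were those of KRT6A, C1orf116, NAP1L2, CRYAB, DYSF, KPNA7, NLRP1 and STOX2, all higher with bortezomib in both states; KPNA7 had only 2 counts in control cells with DMSO, so no size is given for it. CRYAB and KRT6A began at similar levels in both states and reached less in Lo19S cells: KRT6A was at 82.4, 88.4 and 74.7 CPM in control cells with bortezomib against 10.8, 12.9 and 10.7 CPM in Lo19S cells, a difference of -3.2 (SE 1.02, edgeR adjusted p = 0.0141) that rests on few counts with DMSO and was at an adjusted p of 0.0609 without Lo19S DMSO replicate 1 and 0.065 without replicate 2. NLRP1, an inflammasome sensor, began higher in Lo19S cells, with 47.6, 43.9 and 51.9 CPM under DMSO against 6.12, 5.59 and 6.32 CPM in control cells. The gap between the states was thus present before the drug. Under bortezomib it was at 121, 128 and 129 CPM and 98.9, 89.3 and 90.7 CPM, so its smaller response, a difference of -2.54 (SE 0.11, edgeR adjusted p = 1.31e-23), came with the higher final level. DYSF followed the same order, with 15.1, 11.6 and 13.6 and 1.28, 2.14 and 1.77 CPM under DMSO and 28, 30.3 and 27.5 and 21.3, 22.2 and 22.4 CPM under bortezomib in Lo19S and control cells.

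Positive differences were led by RBBP8NL, CYP2T1P, MYRFL, LINC01671, DKK1, KCNK2, BLNK and HILPDA. RBBP8NL had 0 counts in the 3 control libraries with bortezomib and 1.08, 1.61 and 1.01 CPM in the Lo19S libraries, and CYP2T1P and MYRFL had 3 counts each in that control group, so no fitted size is given for these 3. KCNK2, a potassium channel gene, was at 3.91, 4.01 and 2.74 CPM in control cells with bortezomib and 11.2, 13.8 and 11.4 CPM in Lo19S cells, a difference of 2.01 (SE 0.17, edgeR adjusted p = 1.44e-13). DKK1, a secreted inhibitor of Wnt signalling, changed in opposite directions. In Lo19S cells it went from 8.61, 7.92 and 9.83 CPM to 17.6, 17.3 and 19.4 CPM, and in control cells from 12.8, 14.5 and 12.5 CPM to 6.23, 5.79 and 6.55 CPM. In each state the DMSO and bortezomib libraries did not overlap, and the difference was 2.16 (SE 0.17, edgeR adjusted p = 3.88e-14). STC2, which also turned, went from 431, 427 and 416 to 494, 484 and 513 CPM in Lo19S cells and from 579.9, 579 and 585 to 419, 417 and 425 CPM in control cells, but by library totals its change in Lo19S cells was not called, at -0.061 with an edgeR adjusted p of 0.091.

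**Figure D5:**
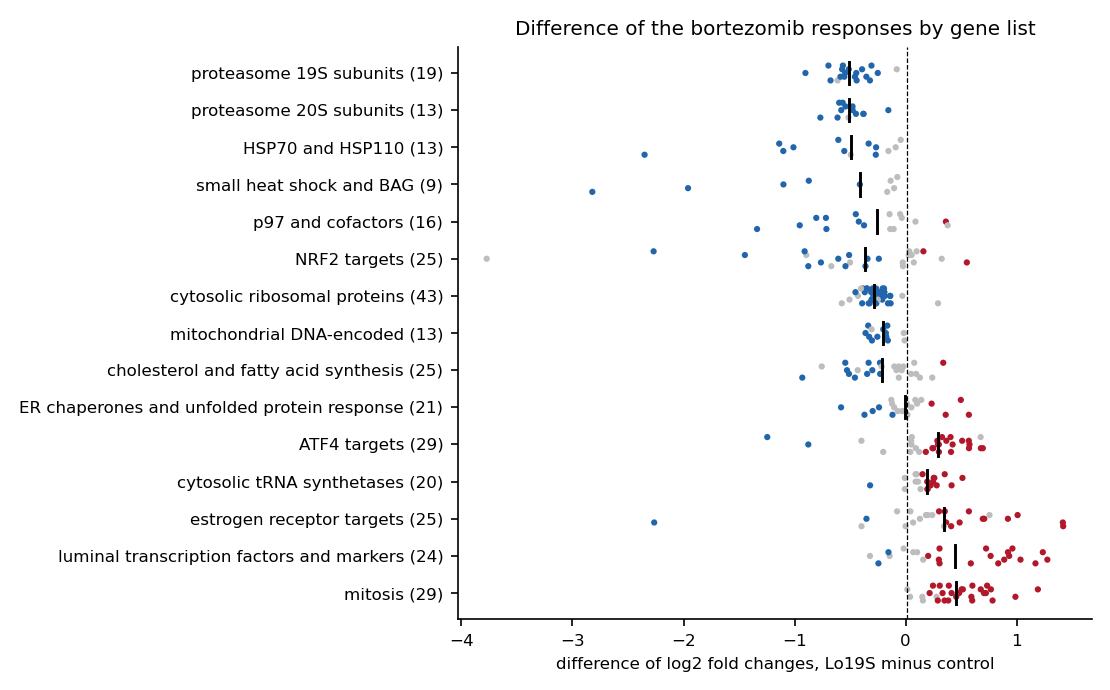
Lo19S response minus control response to bortezomib, in log2 units, for each measured member of 15 lists (number of members in brackets); red points were called higher, blue points lower, grey points were not called, black bars are list medians and the dashed line is the median of all genes tested, 0.01. Members of the 19S and 20S proteasome lists lie to the left of 0 and nearly all mitosis genes to the right; by library totals all values shift by about 0.09.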

How the data were processed

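Polyadenylated RNA was extracted with TRIzol and made into stranded TruSeq libraries, per the labels' protocols. The authors deposited raw counts per gene in 1 file a sample, made from STAR 2.5.4b alignments and featureCounts 1.6.1 with build GRCh37, per the submitters' processing notes; the strand setting is not given in the sources used here. Of 57773 gene identifiers 52338 matched a symbol through GENCODE 29. Counts were tested with edgeR 4.0.16 (R 4.3.3): expression filter, TMM scaling, robust quasi-likelihood fit of all 12 libraries with a coefficient for each of the 4 groups, contrasts for each response and for their difference, and Benjamini-Hochberg adjustment, with 0.05 as the threshold. The scripts were tested on simulated data with known changes in a minority of genes, up and down equally. Such data cannot test the scaling where most genes change, as here. Ratios of genes with 1 to 3 counts in a group carry exact 95% counting intervals, which cover counting error only, and 3 counts over the group served as the floor for 0 counts. Total counts per library, from 7376597 to 15003480, limit the precision of low genes. Alternatives were other scalings, no filter, DESeq2 1.42.0, a replicate block, only the Lo19S libraries, and each library left out in turn.

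Genes named were PSMD2, up to 4 members at each end of each list, members that a count needed, the 15 largest rises and falls with at least 10 CPM in the higher group, the 8 largest differences each way, the 10 most abundant genes of each Lo19S group, and the 6 largest F statistics each way. The gene lists and their members were chosen with earlier results of these data known. Some further members (such as HSF1, NFE2L1, NFE2L2, ATF4, MCL1, BCL2L1, NLRP1 levels and the receptors OPTN and TAX1BP1) and the 6 printed promoters were chosen after their values were seen. Promoters are from RefSeq, build GRCh38.p14, and serve only for their letters, since the counts were made on another build. Results for a few members of the lists are not reported here.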

Additional observations from a re-analysis of the deposited data

Results flagged for a closer look

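The bortezomib response differed between Lo19S and control cells for 4094 of the genes tested, by edgeR's test of the difference itself with Benjamini-Hochberg adjustment. The 8 most negative differences, on the log2 scale and Lo19S minus control, were -3.2 for KRT6A, -2.96 for C1orf116, -2.89 for NAP1L2, -2.82 for CRYAB, -2.61 for DYSF, -2.54 for NLRP1 and -2.44 for STOX2, together with KPNA7, whose adjusted p was 0.0497 and whose counts in control cells with DMSO were too few for a size. Lo19S cells with DMSO already held more NAP1L2 than control cells, 6.53, 6.02 and 5.34 CPM against 0.302, 0.372 and 0.186 CPM, and ended at 18.2, 13 and 18.9 CPM against 6.6, 6.46 and 5.84 CPM with bortezomib. C1orf116 and STOX2 ended lower in Lo19S cells, C1orf116 at 14.3, 13 and 12.4 CPM against 34.8, 31.2 and 34.7 CPM and STOX2 at 26.3, 28.2 and 24.5 CPM against 32.2, 32.6 and 34.1 CPM. On the log2 scale these gaps at the end are smaller than the differences of the responses, so both genes also began higher in Lo19S cells. Their responses in Lo19S and control cells were 3.10 and 6.06 for C1orf116 and 2.22 and 4.66 for STOX2.

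Positive differences were 2.36 for LINC01671, 2.16 for DKK1, 2.01 for KCNK2, 2.0 for BLNK and 1.87 for HILPDA. For RBBP8NL, CYP2T1P and MYRFL, with 0 to 3 counts in control cells under bortezomib, the adjusted p was 1.26e-06, 5.94e-06 and 0.00188. BLNK, an adaptor of B cell receptor signalling, was at 6.21, 8.19 and 7.65 CPM in Lo19S and 0.489, 1.11 and 1.19 CPM in control cells with bortezomib. HILPDA was at 16.8, 20.5 and 16 CPM and 4.4, 4.9 and 4.53 CPM.

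Among list members, 11 changed in opposite directions in the 2 states, with a tested difference. Those lower in Lo19S and higher in control cells were the ribosomal protein genes RPLP0, RPL13 and RPSA, with differences of -0.35, -0.32 and -0.29. The others were higher in Lo19S and lower in control cells: ACTG1 at 0.23, MPC2 at 0.28, NUPR1 at 0.37, HADHB at 0.39, FH at 0.41, PSPH at 0.58, STC2 at 0.7 and AMOTL2 at 0.71. Each of these 8 changed by less than 0.29 in Lo19S cells and turned negative there by library totals, where the change of HADHB, PSPH and STC2 was not called (edgeR adjusted p = 0.455, 0.157 and 0.091). Several of these small changes in Lo19S cells lost their call in other settings too. With no filter on low counts this was so for ACTG1, FH, MPC2, NUPR1, PSPH and AMOTL2, with an edgeR adjusted p of 0.18, 0.142, 0.299, 0.292, 0.179 and 0.437. AMOTL2 was also not called with the replicate block (0.0518), by DESeq2 (adjusted p = 0.072) or in 4 of 6 edgeR fits with 1 library left out, with an adjusted p of 0.0816 and 0.136 without DMSO replicate 2 or 3 and 0.0534 and 0.106 without bortezomib replicate 1 or 2. RPSA was not called in 3 of 6 such fits, with an edgeR adjusted p of 0.0507 without DMSO replicate 2, 0.093 without bortezomib replicate 2 and 0.123 without bortezomib replicate 3. NUPR1 and PSPH each lost their call in 2 of 6, NUPR1 without DMSO replicate 3 (0.0592) or bortezomib replicate 1 (0.239), and PSPH without DMSO replicate 1 (0.0765) or bortezomib replicate 3 (0.058). The changes of RPLP0 and RPL13 in Lo19S cells stayed called in the 12 alternatives computed for each. For all 11 genes, the opposite change in control cells was not followed through these alternatives, so how far it depends on the scaling was not tested.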

How the results depend on the processing

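Of 145 recomputed counts of called genes, 141 stayed within 1.5 times the value reported. The exceptions were by library totals, with 935 genes at least 2-fold higher in Lo19S cells and 3331 higher and 1257 lower in the difference, and by DESeq2, with 121 genes at least 2-fold higher in the difference. Leaving out 1 library gave 10872 to 11274 calls in the Lo19S response and 3408 to 4980 in the difference. By library totals the log2 fold change turned negative for MT-ATP6 (-0.13), MT-CO3 (-0.070), MT-ND2 (-0.26), MT-ND5 (-0.044), NUPR1 (-0.16), P4HB (-0.20), PGD (-0.16), PSMB1 (-0.14), PSPH (-0.10), RRM1 (-0.027), HADHB (-0.040), MPC2 (-0.15), FH (-0.14), ACTG1 (-0.17), AMOTL2 (-0.18), SC5D (-0.066), SLC39A6 (-0.0076) and STC2 (-0.061). By library totals the same happened to list medians: proteasome assembly -0.12, eIF2 alpha kinases and phosphatase -0.0047, metallothioneins -0.13, BCL2 multidomain genes -0.067, basal and mesenchymal genes -0.051, actin and YAP targets -0.18, mitochondrial DNA -0.042, mitochondrial ribosomal proteins -0.089, mitochondrial proteases -0.052, tricarboxylic acid cycle -0.18, glycolysis -0.27, cytosolic ribosomal proteins -0.19, splicing factors -0.090 and fibroblast markers -0.049. The median turned as well for BCL2 genes (-0.17) and actin and YAP targets (-0.16) with only the Lo19S libraries fitted, and for glycolysis (-0.036) with no filter. With 1 library left out the median ran from -0.056 to 0.28 for metallothioneins (lowest without bortezomib replicate 1), from -0.093 to 0.13 for actin and YAP targets (below 0 without DMSO replicate 3 or bortezomib replicate 1, at -0.017), from -0.052 to 0.048 for glycolysis (below 0 without DMSO replicate 1), and from -0.24 to 0.036 for interferon-stimulated genes (above 0 without DMSO replicate 3 or bortezomib replicate 1, at 0.0072). The cause was not tested.

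Replicate numbers are shared between groups. Same-numbered Lo19S libraries deviated together only weakly (correlations 0.049, 0.031 and 0.066), but 6 of 6 libraries correlated best with their own number. These values do not decide whether the numbers are pairs, and the main fit took the libraries as unpaired. With the replicate block 11349 genes were called in the Lo19S response and 3889 in the difference. The KPNA7 difference lost its call in 10 of 12 fits with a library left out.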
